A study of Mus musculus with 12 samples.

Results

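Expression of 10 genes of nitric oxide, arginine, and itaconate metabolism was followed in bone marrow–derived macrophages (BMDMs), which are mouse bone marrow cells differentiated into macrophages in culture. The genes were chosen by symbol (Slc7a2, Nos2, Gch1, Ass1, Arg1, Arg2, Odc1, Acod1, Idh1, and Sdhaf4) and were found through their Ensembl identifiers. All 10 of them, out of 43626 genes in the count files, were among the 14308 genes with enough reads to be tested. There were 3 libraries for each of 4 conditions of 6 hours, namely PBS, the milk oligosaccharide 3′-sialyllactose at 100 μg/mL (3′SL), the bacterial cell wall component LPS at 10 ng/mL, and the combination of LPS with 3′SL. The labels give 3′SL as HMO, name no strain, genotype, or age, and describe 3′SL injections into mice as the treatment, so doses and hours were taken from the paper. Nothing in the labels states that the 3 libraries of a condition came from separate cultures or animals, so the p-values measure only the spread between these libraries. RNA was taken from whole cultures, in which fewer cells of a type and less RNA per cell cannot be told apart.

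Macrophages that sense LPS take up arginine and turn it into nitric oxide and citrulline with the inducible nitric oxide synthase, which needs tetrahydrobiopterin as a cofactor. Arginases compete for the same arginine and make ornithine, from which ornithine decarboxylase starts polyamine synthesis. In the same activated cells, itaconate is made from the citrate cycle intermediate cis-aconitate and inhibits succinate dehydrogenase.

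Between 20411741 and 26851890 reads per library were counted on genes. The spread left within conditions followed 3 sets of 4 libraries, with a lowest correlation of these residuals of 0.38 between libraries of the same set and a highest of 0.0054 between sets. Each set held 1 library of every condition and followed the running numbers of the labels, which do not say what the sets are. Values are always listed in the order of sets 1, 2, and 3, and a fit with the sets as a block is given where it changes a call. The 3′SL library of set 3 stood above the other 3′SL libraries for several of the 10 genes, so the results that rest on it are also given without it. All 10 macrophage markers were detected, with a summed level of 17996 to 31075 CPM, the read count of a gene relative to the TMM-scaled library total. The 8 stromal markers summed to 663 to 771 CPM in set 1, 29.5 to 49.6 in set 2, and 73.1 to 121 in set 3, and the 8 neutrophil markers to 121 to 183, 210 to 343, and 242 to 731 CPM. Among the neutrophil markers, Ngp was at 42.7 to 286 CPM, Ltf at 28.4 to 231, and S100a8 at 21.6 to 147. Mmp8 was at 22.5 to 36.4 CPM and Camp at 3.42 to 31.8. The surface marker Ly6g, Elane, and Mpo were at or below 1.18, 1.38, and 3.44 CPM in all libraries. The 5 T cell markers summed to at most 0.835 CPM (Cd3e and Cd3g at 0 in all 12 libraries, Cd5 with 1 to 21 reads in each), the 5 erythroid markers summed to at most 0.45 CPM, and the B cell and dendritic cell markers (5 each) to at most 2.75 and 15.2 CPM.

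Promoter sequences were available from RefSeq (GRCm38.p6) for 6 of the 10 genes, namely Acod1, Gch1, Ass1, Odc1, Idh1 (2 starts), and Sdhaf4. Acod1 and Gch1 are shown because LPS raised both of them strongly, and Odc1 because it had the lowest adjusted p of the 10 when 3′SL was given alone. Capitals mark matches to a searched motif on either strand, and each stretch lies before the RefSeq start of transcription and reads 5′ to 3′ in the direction of the gene.
Acod1 (chr14:103046762-103047006, + strand): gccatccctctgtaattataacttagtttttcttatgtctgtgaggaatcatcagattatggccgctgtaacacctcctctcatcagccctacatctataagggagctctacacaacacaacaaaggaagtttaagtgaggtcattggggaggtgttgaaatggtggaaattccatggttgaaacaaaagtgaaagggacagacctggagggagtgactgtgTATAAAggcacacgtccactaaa
Gch1 (chr14:47189414-47189663, − strand): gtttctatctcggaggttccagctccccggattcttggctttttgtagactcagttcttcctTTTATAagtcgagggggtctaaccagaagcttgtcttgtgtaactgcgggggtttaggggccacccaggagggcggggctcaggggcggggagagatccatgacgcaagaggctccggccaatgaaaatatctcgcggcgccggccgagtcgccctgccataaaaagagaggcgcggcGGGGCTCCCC
Odc1 (chr12:17544623-17544823, + strand): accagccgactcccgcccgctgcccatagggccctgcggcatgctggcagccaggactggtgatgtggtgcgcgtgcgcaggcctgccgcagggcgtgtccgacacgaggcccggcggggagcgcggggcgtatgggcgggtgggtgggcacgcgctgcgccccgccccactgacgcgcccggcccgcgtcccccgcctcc
In Acod1, the capitals mark a TATA box (TATAAA) at positions −28 to −23 from the RefSeq start, a motif present in 12.4% of the 32851 mouse promoter windows of 250 bases. Gch1 held a match to the kappa B consensus, the recognition sequence of NF-κB, at positions −10 to −1 (3.90% of windows) and a TATA box on the other strand at −188 to −183. An E-box (CACGTG, 6.02% of windows) lay at −36 to −31 in Ass1, which is not shown. None of the searched motifs matched in the windows of Odc1, Idh1, or Sdhaf4. The other motifs searched were the interferon-stimulated response element core (2.98% of windows), the C/EBP core TTGCNNAA (9.56%), the AP-1 core TGANTCA (6.75%), and the cAMP response element TGACGTCA (1.55%), and none of the 6 genes held any of them in this window. The windows ran 35 bases past the GENCODE M21 start of Acod1, 63 bases past that of Ass1, and 79 bases past that of Odc1. The TATA box of Acod1 and the E-box of Ass1 thus lay inside the genes as GENCODE places them. Of the 250 bases searched, only the first 245 are shown for Acod1 and the first 201 for Odc1, so these stretches end short of the RefSeq start. A match is a description of the letters and not of binding.

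LPS raised 7 of the 10 genes and lowered 1. A gene counted as called when edgeR's quasi-likelihood test on the counts gave a Benjamini-Hochberg adjusted p below 0.05 and the change reached 1.5-fold. Among all genes tested, 18.3% were called higher and 20.2% lower. The genes called higher were Nos2, Acod1, Slc7a2, Ass1, Gch1, Arg2, and Odc1, and the gene called lower was Idh1, whereas Arg1 and Sdhaf4 did not pass. In macrophages given 3′SL, LPS raised 4 of the 10 genes (Nos2, Acod1, Slc7a2, and Gch1) against 14.3% of all genes, and lowered Idh1 against 14.8% of all genes. With the library sets as a block, 8 genes were called higher without 3′SL (20.5% of all genes) and 7 with it (16.4% of all genes), Arg1 being added to the former and Ass1, Arg1, and Arg2 to the latter. Under the TMM scaling used, all tested genes had a median change of −0.061 (log2) with LPS. Scaled by total counts instead, that median was −0.71, and 1535 genes were called higher and 6657 lower rather than 2613 and 2889.

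**Figure D1:**
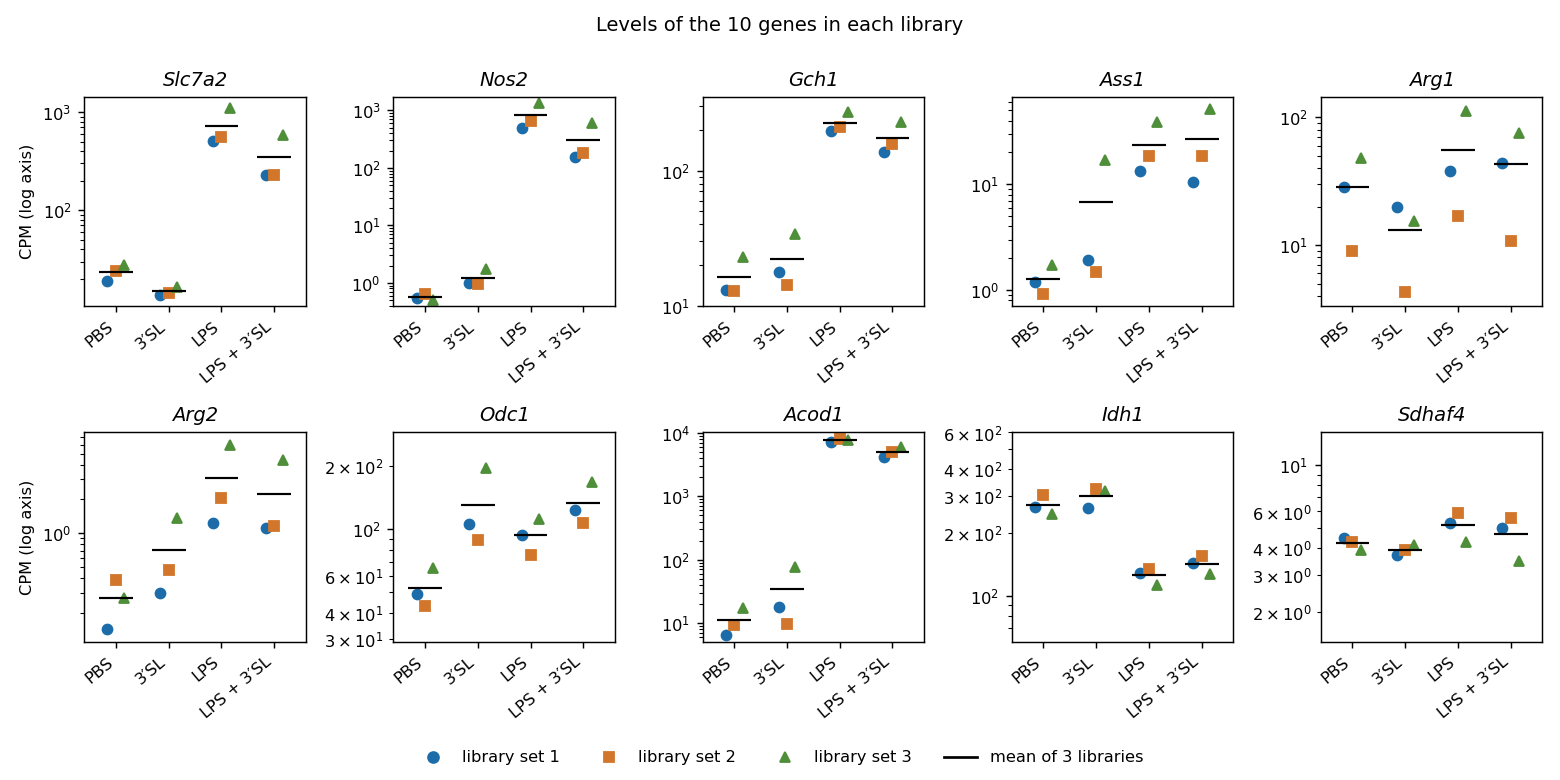
Level of each gene in CPM (log axis) in every library, by condition, with symbols for library sets 1, 2, and 3 and a line at the mean of 3 libraries. Nos2, Acod1, Slc7a2, and Gch1 lay far higher in all LPS and LPS + 3′SL libraries than in the others, whereas Arg1 differed more between sets than between conditions.

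Slc7a2 (ENSMUSG00000031596.11, chromosome 8, 40862396 to 40922308, + strand) encodes a cationic amino acid transporter that brings arginine into activated macrophages. It was at 19.1, 24.1, and 27.5 CPM with PBS and 13.6, 14.4, and 16.7 with 3′SL. With LPS it reached 508, 557, and 1105 CPM, and with LPS + 3′SL 226, 231, and 579 CPM. All LPS-treated libraries lay above all untreated ones, and set 3 was the highest in each condition. The log2 fold change with LPS was 4.94 (SE 0.45, adjusted p = 1.00e-05), and with 3′SL present 4.54 (SE 0.44, adjusted p = 2.61e-05). Its exons overlap Gm26584 on the opposite strand by 635 bases, and the strand setting of the counting is not given in the sources used here.

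Nos2 (ENSMUSG00000020826.6, chromosome 11, 78920787 to 78960254, + strand), the inducible nitric oxide synthase, went from the lowest level of the 10 genes per kilobase of exon to the second highest. With PBS it was at 0.546, 0.631, and 0.506 CPM (15 to 19 reads), and with 3′SL at 1.0, 0.955, and 1.75 CPM (24 to 44 reads). LPS brought it to 502, 642, and 1337 CPM, and LPS + 3′SL to 156, 184, and 595 CPM. Treated and untreated libraries did not overlap, and the LPS + 3′SL library of set 3 lay above the LPS library of set 1. The log2 fold change with LPS was 10.52 (SE 0.77, adjusted p = 2.51e-06), with 9.85, 9.99, and 11.37 within the sets. In the presence of 3′SL it was 7.97 (SE 0.69, adjusted p = 1.23e-05), with 7.28, 7.59, and 8.41 within the sets. These folds rest on at most 44 reads in each library without LPS.

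Gch1 (ENSMUSG00000037580.9, chromosome 14, 47153895 to 47189413, − strand) encodes GTP cyclohydrolase 1, the first enzyme of tetrahydrobiopterin synthesis. Its level was 13.2, 12.8, and 23.1 CPM with PBS and 17.7, 14.3, and 33.9 with 3′SL. With LPS it was 196, 211, and 271 CPM, and with LPS + 3′SL 136, 158, and 230. Every LPS-treated library exceeded every untreated one by a wide margin. LPS changed Gch1 by 3.79 on the log2 scale (SE 0.38, adjusted p = 1.70e-05), and by 2.99 (SE 0.36, adjusted p = 0.000103) in the presence of 3′SL.

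Ass1 (ENSMUSG00000076441.5, chromosome 2, 31470207 to 31520672, + strand) encodes argininosuccinate synthase, which starts the recycling of citrulline to arginine. It stood at 1.21, 0.912, and 1.72 CPM with PBS, but at 1.93, 1.47, and 17.1 with 3′SL. The LPS libraries were at 13.4, 18.4, and 38.7 CPM and the LPS + 3′SL libraries at 10.5, 18.6, and 51.7. The third 3′SL library thus lay within the range of the LPS-treated libraries, while the other 2 stayed near the PBS level. LPS against PBS gave a log2 fold change of 4.19 (SE 1.0, adjusted p = 0.00538). LPS + 3′SL against 3′SL gave 1.98 (SE 0.89, adjusted p = 0.108), and 3.98 (adjusted p = 0.00228) without the third 3′SL library. With the sets as a block the latter comparison gave 2.27 (SE 0.41, adjusted p = 0.000638). Of the 50-nucleotide words in the exons of Ass1, 38.6% also occur in other genes, most of all in Gm5424, so its reads may be divided between them.

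Arg1 (ENSMUSG00000019987.8, chromosome 10, 24915221 to 24927484, − strand) and Arg2 (ENSMUSG00000021125.6, chromosome 12, 79130777 to 79156301, + strand) encode the cytosolic and the mitochondrial arginase. Arg1 was at 28.4, 9.05, and 48.3 CPM with PBS and 19.8, 4.30, and 15.3 with 3′SL. With LPS it was at 38.2, 16.9, and 112 CPM, and with LPS + 3′SL at 44.2, 10.7, and 74.9. Set 2 was the lowest in all 4 conditions, and the conditions overlapped. The difference between LPS and PBS was 0.96 on the log2 scale with an interval of −0.95 to 2.86 (adjusted p = 0.4), and without the LPS library of set 3 it was −0.056. Within the sets, Arg1 was higher with LPS by 0.43, 0.90, and 1.21, and the block fit called it (0.89, SE 0.25, adjusted p = 0.0103). This call of Arg1 was lost under the block with total counts (0.22, adjusted p = 0.419) and without set 2 (0.88, adjusted p = 0.0757). With 3′SL present it was higher by 1.16, 1.31, and 2.29 within the sets, with a log2 fold change of 1.72 (adjusted p = 0.16) and in the block fit 1.55 (SE 0.27, adjusted p = 0.000492). The stromal marker sum was also lowest in set 2 in all 4 conditions, and highest in set 1, and the neutrophil marker sum was highest in set 3. Their part in the level of Arg1 was not tested.

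Arg2 was rare, with 5 to 11 reads per PBS library (0.144 to 0.386 CPM) and 8 to 34 per 3′SL library (0.298 to 1.35 CPM). LPS libraries held 25 to 97 reads (1.22 to 5.95 CPM), and LPS + 3′SL libraries 23 to 82 (1.12 to 4.40 CPM). All LPS libraries lay above all PBS libraries, but the third 3′SL library lay above 2 of the LPS + 3′SL libraries. The log2 fold change with LPS was 3.51 (SE 0.86, adjusted p = 0.00633). With 3′SL present it was 1.64 (SE 0.79, adjusted p = 0.134), or 2.51 (adjusted p = 0.0470) without the third 3′SL library, and in the block fit 1.62 (SE 0.39, adjusted p = 0.00484). Its exons overlap Vti1b on the opposite strand by 285 bases, and 21.2% of its words are shared, mostly with that gene.

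Odc1 (ENSMUSG00000011179.7, chromosome 12, 17544794 to 17551505, + strand) encodes ornithine decarboxylase, the entry step of polyamine synthesis. It was at 49.1, 42.9, and 65.4 CPM with PBS and at 106, 89.3, and 197 with 3′SL. LPS libraries stood at 94.4, 75.1, and 112 CPM, and LPS + 3′SL libraries at 124, 107, and 167. All PBS libraries lay below all libraries of the other conditions, which overlapped one another. The log2 fold change with LPS was 0.84 (SE 0.30, adjusted p = 0.0388), with 0.94, 0.81, and 0.77 within the sets. This call was lost when LPS replicate 1 (0.83) or 3 (0.69) or PBS replicate 1 (0.79) or 2 (0.71) was left out, and under total counts (0.18). With 3′SL present, the change of Odc1 with LPS was 0.02 (interval −0.63 to 0.67), and −0.45 under total counts. The exons of Odc1 share 24.3% of their words with other genes, most of all with Gm7993.

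Acod1 (ENSMUSG00000022126.6, chromosome 14, 103046977 to 103056573, + strand) encodes the cis-aconitate decarboxylase that makes itaconate. It was at 6.55, 9.37, and 17.3 CPM with PBS, and at 18.2, 9.79, and 77.0 with 3′SL. With LPS it reached 7206, 7953, and 7857 CPM, and with LPS + 3′SL 4102, 4951, and 5966. No library with LPS was near any library without it, and relative to the mean the sets differed least with LPS. The log2 fold change with LPS was 9.44 (SE 0.88, adjusted p = 1.10e-05), and 7.16 (SE 0.80, adjusted p = 6.02e-05) in the presence of 3′SL. Without the third 3′SL library the latter was 8.50.

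Idh1 (ENSMUSG00000025950.12, chromosome 1, 65158616 to 65186500, − strand) encodes the cytosolic isocitrate dehydrogenase, which makes NADPH. It was at 264, 301, and 247 CPM with PBS and 261, 322, and 315 with 3′SL. With LPS it stood at 129, 135, and 113 CPM, and with LPS + 3′SL at 144, 155, and 127. All libraries with LPS lay below all libraries without it. Idh1 fell by 1.11 on the log2 scale with LPS (SE 0.13, adjusted p = 4.78e-05), and by 1.07 (SE 0.13, adjusted p = 9.19e-05) in the presence of 3′SL. Sdhaf4 (ENSMUSG00000026154.4, chromosome 1, 23995939 to 24005656, − strand), an assembly factor of succinate dehydrogenase, stayed between 3.48 and 5.91 CPM in all 12 libraries. Its change with LPS was 0.29 (interval −0.17 to 0.74, adjusted p = 0.289), and under total counts −0.35.

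**Figure D2:**
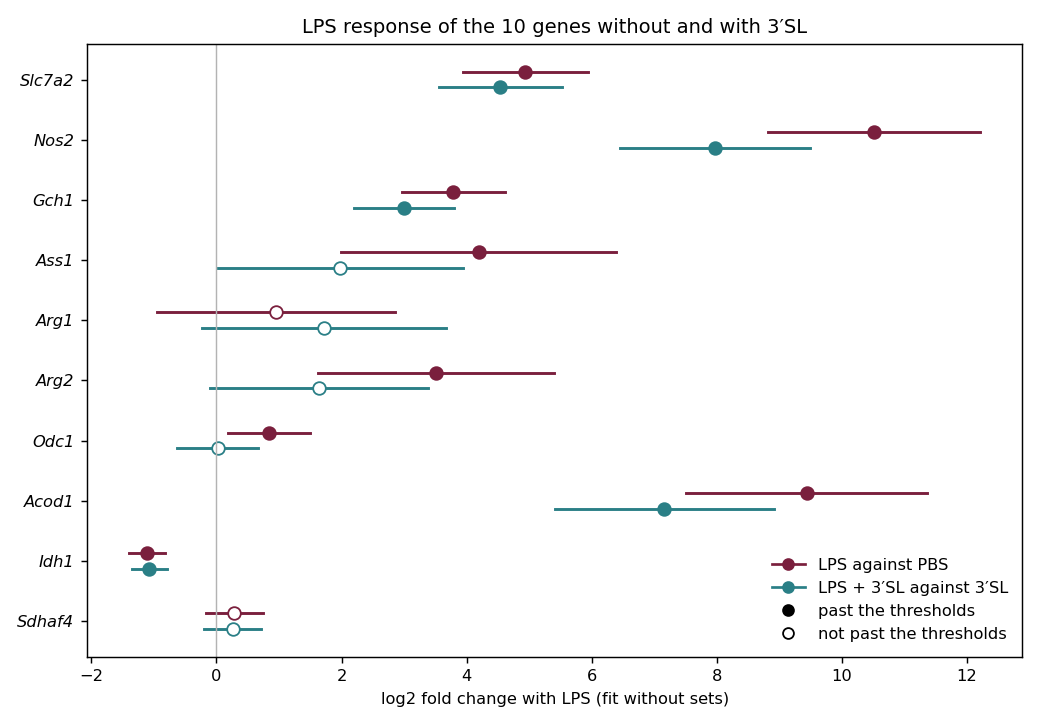
Log2 fold change with LPS for each of the 10 genes, without 3′SL (LPS against PBS) and with it (LPS + 3′SL against 3′SL), with 95% intervals from the fit without library sets and filled points for changes past both thresholds. The estimates for Nos2 (10.52 and 7.97) and Acod1 (9.44 and 7.16) are farthest apart in size among the genes called in both, and those for Idh1 (−1.11 and −1.07) lie close together.

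Per kilobase of exon, the mean levels with PBS ran in the order Idh1 (97.7 CPM per kb, SD 10.1), Odc1 (15.4, SD 3.42), Arg1 (12.8, SD 8.82), Sdhaf4 (4.84, SD 0.344), Acod1 (4.23, SD 2.13), Gch1 (2.62, SD 0.934), Slc7a2 (2.58, SD 0.466), Ass1 (0.53, SD 0.169), Arg2 (0.187, SD 0.0849), and Nos2 (0.127, SD 0.0145). Idh1 stood above Odc1, Slc7a2 above Ass1, and Ass1 above Arg2 by more than their summed SDs, and the other neighbors did not differ by that much. With LPS the order was Acod1 (2925, SD 155), Nos2 (188, SD 101), Slc7a2 (79.2, SD 36.3), Idh1 (45.2, SD 4.03), Gch1 (36.1, SD 6.29), Odc1 (27.5, SD 5.41), Arg1 (25.0, SD 22.3), Ass1 (9.74, SD 5.54), Sdhaf4 (5.90, SD 0.929), and Arg2 (2.15, SD 1.77). Here Acod1 stood apart from Nos2, and Sdhaf4 from Arg2, by more than the summed SDs, while the levels from Nos2 to Sdhaf4 formed a series without such a gap. The arginase Arg1 was thus above Nos2 with PBS, and Nos2 above Arg1 with LPS.

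To ask how 3′SL altered this response, LPS + 3′SL was compared with LPS. Nos2 and Slc7a2 were lower with LPS + 3′SL in all 3 sets, at 31.2%, 28.7%, and 44.5% of the LPS level for Nos2 and 44.5%, 41.4%, and 52.4% for Slc7a2. Neither passed the thresholds without the sets, where 0 of the 10 genes and 0% of all genes were called by edgeR, although 2 of the 10 and 995 of all genes had an unadjusted p under 0.05. DESeq2 also called 0 of the 10, against 0.79% of all genes. With the library sets as a block, 2 of the 10 genes were called, against 1.45% of all genes. These were Nos2, with a log2 fold change of −1.53 (SE 0.19, adjusted p = 0.00248) in place of −1.41 (SE 0.50, adjusted p = 0.528), and Slc7a2, with −1.10 (SE 0.19, adjusted p = 0.0142) in place of −1.07 (SE 0.39, adjusted p = 0.542). In the fit without the sets, leaving out the third LPS + 3′SL library moved Nos2 to −2.28 and Slc7a2 to −1.66, and leaving out the third LPS library moved them to −0.88 and −0.63, with no call in any case. The block calls on both genes were kept without set 3 (−1.73 for Nos2, −1.21 for Slc7a2) but were lost without set 1 (−1.46 and −1.08) or set 2 (−1.40 and −1.03), with 2 libraries left per condition in each case. Of all 14308 genes, these fits called 369 without set 3, 1 without set 1, and 0 without set 2.

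Acod1 was the only one of the 10 genes whose LPS and LPS + 3′SL libraries did not overlap, against 12.7% of all genes, and stood at 56.9%, 62.3%, and 75.9% of the LPS level within the sets. Its log2 fold change was −0.62 with an interval of −1.96 to 0.73 (adjusted p = 1), and −0.67 (adjusted p = 0.486) in the block fit. For Gch1, LPS + 3′SL stood at 69.5%, 75.0%, and 84.9% of LPS, with an interval of −1.11 to 0.37 for the log2 fold change. Odc1 differed in the other direction, at 132%, 142%, and 150% of LPS within the sets, with a log2 fold change of 0.50 (interval −0.15 to 1.15) and in the block fit 0.49 (SE 0.11, adjusted p = 0.0504). Ass1 (−0.36, 0.013, and 0.42) and Arg1 (0.21, −0.66, and −0.58) had no common direction in the sets. Arg2 was lower in each set (−0.13, −0.82, and −0.44) on 23 to 97 reads per library. The intervals were narrowest for Idh1 (−0.098 to 0.46) and Sdhaf4 (−0.59 to 0.32). The 10 genes had a median of −0.37, beside −0.0079 over all genes tested.

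3′SL against PBS shows what 3′SL did in the absence of LPS. Odc1 was higher in the 3′SL libraries of all sets, at 217%, 208%, and 301% of PBS. Its log2 fold change was 1.32 (SE 0.30, adjusted p = 0.258) without the sets and 1.27 (SE 0.12, adjusted p = 0.00137) with the sets as a block, and DESeq2 without the sets gave an adjusted p of 0.0114. Leaving the third 3′SL library out of the block fit kept the call (1.04, adjusted p = 0.000310), and leaving out set 1 or set 2 ended it (adjusted p = 0.0757 and 0.0768). Without set 1 or set 2, the block fit called only 2 and 3 of all 14308 genes. By edgeR without the sets, 0 of the 10 genes and 0% of all genes were called, with 3 of the 10 and 1439 of all genes at an unadjusted p under 0.05. DESeq2 called 1 of the 10 genes, against 0.615% of all genes, and the block fit 3 of the 10, against 2.84% of all genes.

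Also called in the block fit were Ass1, which was higher (1.92, SE 0.49, adjusted p = 0.0455), and Arg1, which was lower (−1.03, SE 0.27, adjusted p = 0.0467). For Ass1, the third 3′SL library set the size of the change: the within-set values were 0.68, 0.69, and 3.31, and the block fit without it gave 0.93 (adjusted p = 0.229). Arg1 was at 69.5%, 47.5%, and 31.8% of PBS in the sets, and without the third 3′SL library the block fit gave −0.69 (adjusted p = 0.120). In that library, Acod1 (77.0 CPM), Nos2 (1.75), Gch1 (33.9), and Arg2 (1.35) also had their highest level among the 3′SL libraries. When it was left out of the fit without the sets, the log2 fold change against PBS went from 1.66 to 0.30 for Acod1, from 1.41 to 0.51 for Arg2, from 2.41 to 0.38 for Ass1, from 1.32 to 0.86 for Odc1, from 1.13 to 0.77 for Nos2, and from 0.43 to −0.068 for Gch1. The neutrophil marker sum of that library was 242 CPM, beside 412 in the PBS library of its set, and the part of other cells in these levels was not tested. Libraries of 3′SL and PBS did not overlap for 3 of the 10 genes (Nos2, Odc1, and Slc7a2), against 17.5% of all genes. Slc7a2 stood at 71.2%, 59.5%, and 60.5% of PBS, with a log2 fold change of −0.66 (interval −1.53 to 0.20) and an adjusted p of 0.0844 in the block fit. For Idh1 (0.14, interval −0.13 to 0.42) and Sdhaf4 (−0.11, interval −0.56 to 0.35) the differences were small.

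**Figure D3:**
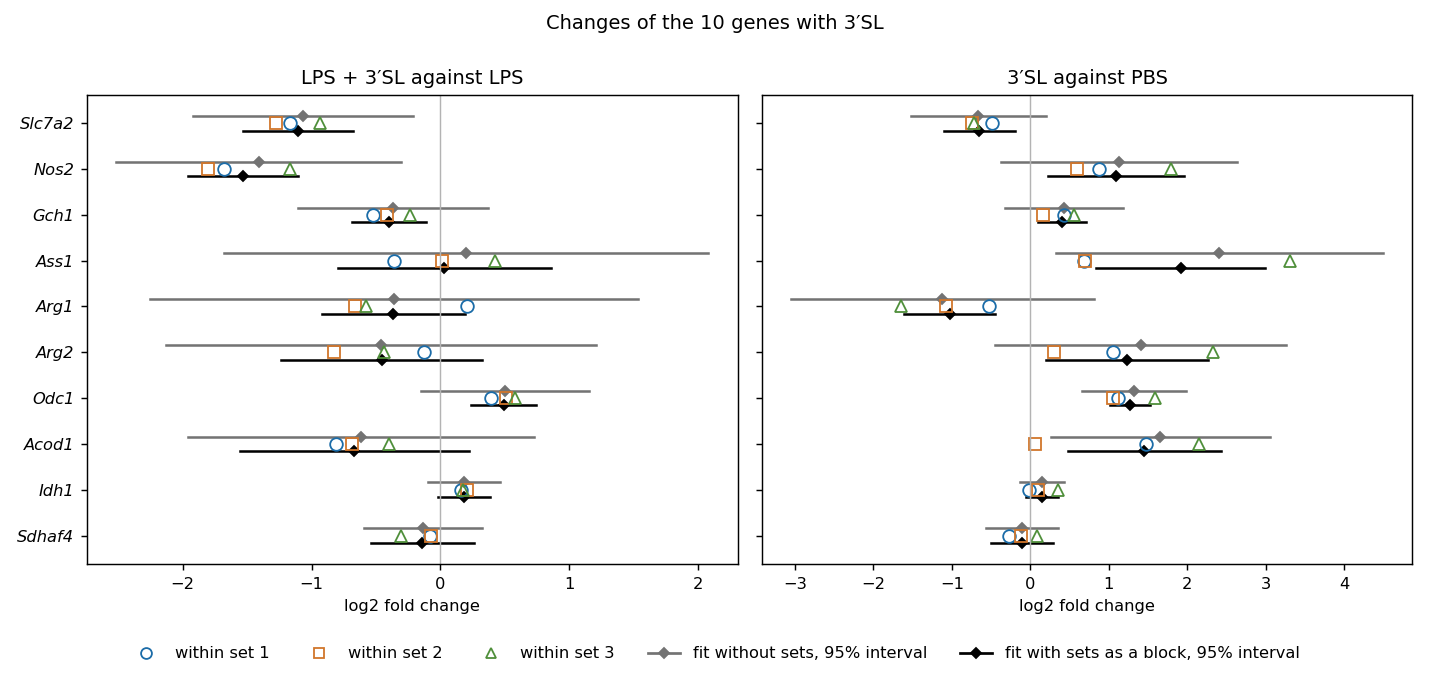
Log2 fold change of each gene with 3′SL, beside LPS (left) and without LPS (right). Open symbols are the changes within library sets 1, 2, and 3, gray diamonds the fit without the sets, and black diamonds the fit with the sets as a block, with 95% intervals. Slc7a2 lies below 0 in every set on both sides. Nos2 changes side, from −1.53 to 1.09 in the block fit, the latter value not being called.

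Whether the change with 3′SL depended on LPS was tested as the difference between the log2 fold change with 3′SL beside LPS and that without LPS. For Nos2 this difference was −2.54 (SE 0.84, adjusted p = 0.696) without the sets and −2.62 (SE 0.44, adjusted p = 0.0166) with them as a block, and −2.56, −2.40, and −2.96 within the sets. For Odc1 it was −0.82 (SE 0.42, adjusted p = 0.828) and in the block fit −0.77 (SE 0.16, adjusted p = 0.0388). Without the third 3′SL library, Odc1 went to −0.36 in the fit without the sets, and to −0.54 (adjusted p = 0.0307) in the block fit, short of 1.5-fold, while Nos2 was still called (−2.85, adjusted p = 0.0204). Under the block with total counts Odc1 was not called (−0.60, adjusted p = 0.116), and without set 1 or set 2 neither gene was (adjusted p from 0.233 to 0.388). Of all 14308 genes, 1 was called without set 1 and 0 without set 2. In the estimates, the negative sign came from Nos2 being lower with 3′SL beside LPS and higher without it. For Odc1 it came from being higher in both, by less beside LPS. The rise of Nos2 without LPS was not called (1.13, interval −0.37 to 2.64, adjusted p = 0.627, and 0.121 in the block fit). That of Odc1 beside LPS was not called either (adjusted p = 0.867, and 0.0504 in the block fit). Slc7a2 was lower with 3′SL in both settings, and its difference was −0.40 with an interval of −1.61 to 0.80. Called for this difference were 0 of the 10 genes by edgeR without the sets (0% of all genes, with 2 of the 10 and 872 of all genes at an unadjusted p under 0.05), 0 by DESeq2 (0.308% of all genes), and 2 with the sets as a block (1.55% of all genes).

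A further 80 genes of the surrounding pathways were listed, of which 79 were in the count files and 66 had enough reads to be tested. With LPS, 6 of the 66 were called higher (18.3% of all genes) and 15 lower (20.2% of all genes). The list median was −0.18 on the log2 scale. With the sets as a block, 7 were called higher and 18 lower, since Gatm was lost and Clybl (0.62), Smox (0.64), Fh1 (−0.77), Idh3a (−0.64), and Nostrin (−1.06) were gained, genes named here after their values were seen. Over all 14308 genes tested, the block fit called 2939 higher and 3439 lower. Counts below are from the fit without the sets. Of 5 tested cationic amino acid transport genes, 2 rose and 3 fell. Slc7a7, which exports arginine in exchange for neutral amino acids, rose by 1.97 (SE 0.13, adjusted p = 1.57e-06), from 22.9 to 26.6 CPM with PBS to 87.8 to 115 with LPS. Its partner chain Slc3a2 rose by 0.76 (adjusted p = 0.0212). The housekeeping arginine transporter Slc7a1 (−0.83, adjusted p = 0.0217), the exchanger Slc7a6 (−1.38, adjusted p = 0.00138), and the mitochondrial ornithine carrier Slc25a15 (−0.94, adjusted p = 0.0117) fell, in the opposite direction to Slc7a2.

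Among the tetrahydrobiopterin and nitric oxide synthase genes outside the 10, Spr, which catalyzes the last step of tetrahydrobiopterin synthesis, fell (−1.13, SE 0.30, adjusted p = 0.00921). Of 7 genes of nitric oxide handling, Esd, the S-formylglutathione hydrolase, rose (0.97, adjusted p = 0.0414) and Ddah2, a hydrolase of methylated arginines, fell (−1.02, adjusted p = 0.00699). Among 4 tested genes listed under urea cycle and arginine recycling, Gatm, which uses arginine for creatine synthesis, rose (0.59, adjusted p = 0.0332). In the block fit Gatm gave 0.57, short of 1.5-fold. The next enzyme of creatine synthesis, Gamt, fell (−0.74, adjusted p = 0.0270).

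Polyamine and proline synthesis had 1 gene higher and 5 lower of 16. Srm (−1.79, adjusted p = 9.49e-05), the spermidine synthase, and Amd1 (−1.55, adjusted p = 2.84e-05), which supplies its aminopropyl donor, fell, as did the polyamine oxidase Paox (−1.69, adjusted p = 0.00182). Sat1, which acetylates polyamines for export, rose by 1.03 (adjusted p = 0.000792). Srm and Amd1 thus moved in the opposite direction to Odc1. The call of Odc1 with LPS was itself lost under total counts and when some single libraries were left out. Amd1 shares 78.1% of its words, mostly with Amd2, and Paox 28.5%. Of 29 citrate cycle and itaconate breakdown genes, 1 rose and 3 fell, or 2 and 5 in the block fit, with a list median of −0.0096. The riser was Slc25a10 (0.85, adjusted p = 0.00563), a mitochondrial dicarboxylate carrier. The 3 that fell were Idh2 (−0.82, adjusted p = 0.0444), the mitochondrial NADP-dependent counterpart of Idh1, and the succinate dehydrogenase assembly factors Sdhaf1 (−1.77, adjusted p = 0.00262) and Sdhaf3 (−1.16, adjusted p = 0.0313). Sdhaf1 shares 69.0% of its words with other genes, mostly with E130208F15Rik on the opposite strand. Under total counts, Slc3a2 (0.087), Esd (0.30), Sat1 (0.36), and Slc25a10 (0.21) no longer passed and Gatm turned to −0.089, whereas Slc7a7 (1.31) still passed.

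**Figure D4:**
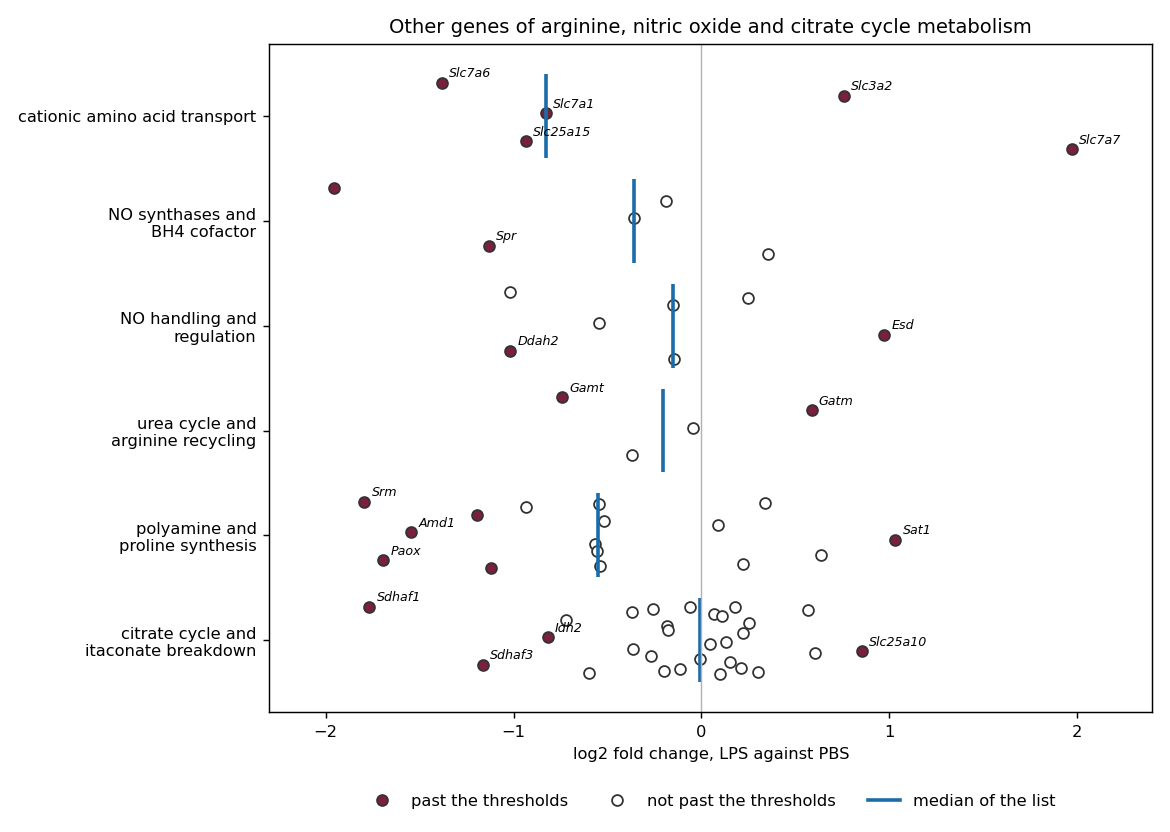
Log2 fold change of LPS against PBS for the 66 tested genes of 6 pathway lists, with filled points for changes past both thresholds, a bar at the median of each list, and names beside the genes described in the text. The median lies lowest in cationic amino acid transport (−0.83, 5 genes) and near 0 for the 29 citrate cycle and itaconate breakdown genes.

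None of the 66 genes was called in a 3′SL comparison by edgeR without the sets, against 0% of all genes. With the sets as a block, 0 were called for LPS + 3′SL against LPS (1.45% of all genes). For 3′SL against PBS, 4 were called (2.84% of all genes), 1 higher and 3 lower. Esd was higher (0.81, SE 0.14, adjusted p = 0.0104). Prodh, which starts the breakdown of proline, was lower (−1.46, SE 0.30, adjusted p = 0.0200) at 35.1%, 57.6%, and 20.9% of PBS. Slc25a15 (−0.65, SE 0.17, adjusted p = 0.0485) and Nostrin, a trafficking regulator of endothelial nitric oxide synthase (−0.66, SE 0.14, adjusted p = 0.0221), were also lower. Each of these 4 calls was lost without set 1, without set 2, and without the third 3′SL library, and Prodh alone kept its call without set 3 (−1.13, adjusted p = 0.0449). Those fits called 2, 3, 145, and 318 of all 14308 genes, in that order. Slc25a15 was also lost under the block with total counts (adjusted p = 0.0570).

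The genes whose level over the 12 libraries was most like that of Nos2 were Snx10, Pim1, and Plekha4 (Pearson's r of log2 CPM 0.998, 0.997, and 0.997). For Acod1 they were Icam1, Gbp3, and Gbp2b (0.998 each), and for Arg1 they were Kctd11, Ecm1, and C1qa (0.946, 0.923, and 0.907). All points share the 4 conditions and the 3 library sets, so these values describe likeness of pattern only.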

How the data were processed

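RNA-seq libraries (polyA, stranded kit) of BMDMs numbered 12. The deposited values are raw counts per gene in the layout of HTSeq, which the authors made with FastQC, Trimmomatic, and STAR before counting and analyzed with DESeq2, per the labels. Versions, the genome build, and the strand setting are not given in the sources used here. Of all rows, 33.2 to 37.1% of reads were not assigned to a gene and were left out. Names, exons, and coordinates came from GENCODE M21 (GRCm38), which named 42462 of 43626 identifiers. Counts were analyzed with edgeR 4.0.16 in R 4.3.3 (quasi-likelihood test, TMM scaling, filterByExpr, 1 mean per condition over all 12 libraries, Benjamini-Hochberg adjustment over all genes tested). The edgeR fit without the sets was tested on simulated counts for LPS against PBS only. No library sets were simulated, and the other fits and comparisons were not tested in this way. SEs were derived from the F statistic, and intervals are 95%. Alternatives were DESeq2 1.42.0, other scalings and filters, no fold minimum, the library sets as a block, and leaving out each library. The labels carry no replicate number, so the block rests on running numbers and on the residual correlation (mean 0.54 within and −0.33 between sets). No pair of libraries of the same condition agreed within sampling noise, and pairs across conditions were not compared. Named beside the 10 genes were, per pathway list and direction, up to 3 genes with the largest change with LPS, each gene called for 3′SL, and the 3 genes most like Nos2, Acod1, and Arg1. The result of 1 of these genes is not reported here, though list counts and medians include it. Members and lists were chosen with earlier results of these data known. Shared words are runs of 50 nucleotides.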

Additional observations from a re-analysis of the deposited data

Results flagged for a closer look

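For 4 of the 10 genes, the change with 3′SL was positive in all 3 library sets without LPS and negative in all 3 beside LPS, a pattern shown by 937 of the 14308 genes tested (6.55%). These were Nos2, with a difference between both log2 fold changes of −2.54 (adjusted p = 0.696 by edgeR without the sets), Acod1 with −2.27 (adjusted p = 0.746), Arg2 with −1.87 (adjusted p = 0.854), and Gch1 with −0.80 (adjusted p = 0.854). With the sets as a block, the difference passed for Nos2 (adjusted p = 0.0166) and not for Gch1 (adjusted p = 0.0633), Acod1 (adjusted p = 0.0994), or Arg2 (adjusted p = 0.173). Without LPS, Nos2 rested on 15 to 44 reads and Arg2 on 5 to 34 reads per library. In set 2, the positive change without LPS was small for Acod1 (0.063) and Gch1 (0.16). For Arg2 it was 0.31 there, on 12 reads against 11. Without the third 3′SL library and without the sets, the difference was −0.91 for Acod1, −0.98 for Arg2, and −0.30 for Gch1, and the change of Gch1 with 3′SL in the absence of LPS was −0.068. For Arg2 it was also −0.96 without the third LPS library and −2.83 without the third LPS + 3′SL library.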

How the results depend on the processing

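With 3 libraries per condition, the coefficient of biological variation was 0.31, and 0.13 with the sets as a block. Precision thus differed between the fits. For LPS + 3′SL against LPS, the SE of Nos2 was 0.50 without the sets and 0.19 with them. Calls with LPS against PBS numbered 7 to 9 under the alternatives run, out of 10 genes, or out of 9 where 10 counts were required in every library, which removed Arg2. Of all 14308 genes, 4656 (without LPS replicate 3) to 9098 (block with total counts) were called. With other filters it was 5434 of 24679 (no filter) and 4724 of 11388 (10 counts in every library). Calls of the 10 genes in the other comparisons rose under the block of library sets. With the block, LPS + 3′SL against 3′SL gave 8 calls, also with DESeq2, with total counts, without any 1 set, and without the third 3′SL library, in place of 5. Over all genes these fits called 4297 to 7422, in place of 4171. For LPS + 3′SL against LPS, the block gave 2 calls, with DESeq2 2, with total counts 2, without the third 3′SL library 2, and without set 3 3. Over all genes the calls were 207, 284, 218, 285, and 369, in that order. For 3′SL against PBS the block gave 3, with DESeq2 5, with total counts 3, without the third 3′SL library 1, and without set 3 3, and DESeq2 without the block gave 1. Over all genes the calls were 406, 648, 365, 145, 318, and 88, in that order. Under the block with total counts and without set 3, Ass1 was lost (adjusted p = 0.0570 and 0.293) and Slc7a2 gained as lower (−0.74 and −0.64). For the interaction the block gave 2, with DESeq2 3, with total counts 1, without the third 3′SL library 1, and without set 3 4. Over all genes the calls were 222, 506, 136, 169, and 455, in that order. Without set 1 or set 2 the block fit called 0 of the 10 genes in these 3 comparisons, and 0 to 3 of all 14308 genes. The fits with a set or the third 3′SL library left out under the block were chosen after seeing the data. Some changes near 0 turned sign. Under total counts Odc1 (LPS + 3′SL against 3′SL) gave −0.45, and −0.41 with the block. Sdhaf4 then gave −0.35 (block −0.38) for LPS against PBS, −0.19 (block −0.24) for LPS + 3′SL against 3′SL, and 0.16 (block 0.14) for the interaction. That last value of Sdhaf4 was 0.0019 without a filter, and under the block 0.16 without set 3 and 0.17 without the third 3′SL library. Under the block without set 1 and set 2, Odc1 (LPS + 3′SL against 3′SL) gave −0.0015 and −0.019, and Idh1 (interaction) −0.036 and −0.011. Ass1 (LPS + 3′SL against LPS) gave −0.14 under the block without set 3, and Idh1 (3′SL against PBS) −0.0032 without the third 3′SL library. Leaving out 1 library at a time turned the sign within these ranges: Arg1 −0.056 to 1.56 for LPS against PBS; for LPS + 3′SL against LPS, Arg1 −1.02 to 0.65, Arg2 −1.43 to 0.44, Ass1 −0.69 to 0.76, and Sdhaf4 −0.28 to 0.038; Gch1 −0.068 to 0.76 for 3′SL against PBS; Odc1 −0.19 to 0.46 for LPS + 3′SL against 3′SL; and for the interaction, Idh1 −0.053 to 0.11, Sdhaf4 −0.18 to 0.15, and Slc7a2 −1.0 to 0.039. None of these values was called with the sets ignored, and the cause was not tested.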
